A study of Mus musculus with 18 samples.

Results

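The 9 genes described here encode carbonic anhydrases and carriers of bicarbonate and protons: *Car15*, *Car12*, *Car4*, *Car14* and *Car2* among the carbonic anhydrases, *Slc4a2*, *Slc4a4* and *Slc4a7* among the bicarbonate transporters, and *Slc9a3*, which encodes the sodium-proton exchanger NHE3. They were taken by name from the 55401 genes of the tables, and each name matched 1 row. RNA was sequenced from pools of microdissected thick ascending limbs (TAL) of male mice aged 4 to 10 months (C57BL/6J by the labels, a mainly C57BL/6 background by the study's methods), 1 mouse per pool, with 5 pools of wild type cortical TAL (WT CTAL), 5 of WT medullary TAL (WT MTAL), 5 of *Cldn10* conditional knock-out (cKO) CTAL and 3 of cKO MTAL. All mice carried *Cldn10* fl/fl, and cKO mice also carried Cre driven by the promoter of Ksp-cadherin, a gene of distal nephron cells, so that WT means floxed littermates without Cre and other segments of the distal nephron of cKO mice could be recombined too. *Cldn10* encodes a claudin, a tight junction protein of the paracellular sodium pathway. The comparisons ask how its loss changes each segment and how the segments differ. The paper reports nephrocalcinosis in the outer medulla of cKO kidneys, so that in MTAL this calcification and genotype cannot be told apart.

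Carbonic anhydrases interconvert carbon dioxide and bicarbonate. In the TAL, protons leave the cell for the lumen, mostly in exchange for sodium through NHE3, carbonic anhydrases at the membrane and in the cytosol speed the reaction with filtered bicarbonate, and bicarbonate is handed to the blood side through transporters of the Slc4 family. The medullary limb also reabsorbs ammonium, and NBCn1, the product of *Slc4a7*, brings bicarbonate into these cells from the blood side.

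Total counts per pool ranged from 10824299 to 62339939. *Cldn10* lay at 383 to 579 CPM (counts relative to the total of each pool, after scaling) in WT CTAL and at 156 to 185 CPM in cKO CTAL. In MTAL it lay at 665 to 823 CPM in WT and at 151 to 283 CPM in cKO. It was lower in every cKO pool than in every WT pool of its segment but was not absent. The paper states that cKO pools were retained only where *Cldn10* was significantly lower than in WT. This separation was therefore set in part by the choice of pools. The pool named WT CTAL replicate 1 is called a knock-out in the remaining labels. It was used by its pool name, its *Cldn10* level was 446 CPM, and the called differences of the 9 genes that use it are also given without it. *Xist*, a transcript of the inactive X chromosome of females, lay at 6.50 to 8.91 CPM in 7 pools (cKO CTAL replicate 2, WT CTAL replicates 3 and 22, and WT MTAL replicates 11, 15, 17 and 19) and at 0.234 to 0.736 CPM in the others, although the mice are described as male. Because 4 of the 5 WT MTAL pools are among the 7, leaving them out reduces WT MTAL to 1 pool. The summed level of 6 TAL markers was 39500 to 49600 CPM in WT MTAL, 56400 to 63200 in cKO MTAL, 61800 to 67800 in WT CTAL and 63900 to 71700 in cKO CTAL. In pools of tubules, fewer cells of a type and less RNA per cell cannot be told apart.

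*Car15* lies on the minus strand at chr16:17835276-17838364 (mm10) and encodes a carbonic anhydrase anchored to the cell surface. *Car12* lies on the plus strand at chr9:66713686-66766845 and encodes a transmembrane form whose catalytic domain faces outward. *Slc4a7* lies on the plus strand at chr14:14702279-14799940. Among the members with enough counts to be tested, these 3 genes differed most between segments or genotypes. The sequence from 250 bases before to 50 bases after their RefSeq start (GRCm38.p6) is shown with matches of 7 motifs in capitals. The windows are chr16:17838137-17838436 on the minus strand, chr9:66713436-66713735 on the plus strand and chr14:14718534-14718833 on the plus strand. The windows of *Car15* and *Slc4a7* lie partly or wholly inside the genes as Gencode draws them.
Car15: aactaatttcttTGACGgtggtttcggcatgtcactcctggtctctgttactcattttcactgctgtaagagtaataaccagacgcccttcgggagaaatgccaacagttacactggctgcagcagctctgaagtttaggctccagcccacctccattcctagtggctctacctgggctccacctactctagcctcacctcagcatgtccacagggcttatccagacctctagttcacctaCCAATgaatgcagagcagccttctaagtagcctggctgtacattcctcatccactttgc
Car12: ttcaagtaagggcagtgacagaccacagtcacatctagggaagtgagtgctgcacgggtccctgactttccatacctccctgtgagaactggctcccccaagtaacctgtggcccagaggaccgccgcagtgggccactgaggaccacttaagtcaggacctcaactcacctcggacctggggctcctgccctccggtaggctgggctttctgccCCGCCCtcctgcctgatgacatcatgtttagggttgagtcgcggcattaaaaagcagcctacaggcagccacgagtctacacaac
Slc4a7: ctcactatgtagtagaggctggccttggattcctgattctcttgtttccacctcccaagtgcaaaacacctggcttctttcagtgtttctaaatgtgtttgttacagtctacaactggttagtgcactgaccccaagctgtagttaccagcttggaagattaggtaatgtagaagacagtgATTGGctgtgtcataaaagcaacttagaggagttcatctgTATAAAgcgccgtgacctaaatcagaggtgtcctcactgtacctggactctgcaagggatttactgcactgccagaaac
Both strands were searched, and no motif searched contains another. The window of *Car15* held TGACG, the core of the cAMP response element, which 20.8% of all 32851 promoters hold, and CCAAT, held by 37.4%. The window of *Car12* held GGGCGG on the opposite strand, the GC box, held by 35.7%. The window of *Slc4a7* held TATAAA, held by 13.6%, and CCAAT on the opposite strand. The letters CACGTG (7.15% of promoters), AAGGTCA (4.72%) and GTTAAT (7.10%) were not in these 3 windows. The shared CCAAT match is common among promoters, and the 3 windows differed in base composition, with 50.3% G and C for *Car15*, 58.3% for *Car12* and 45.0% for *Slc4a7* beside a median of 52.7% over all promoters.

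*Car15* was the member with the widest range of levels. In WT MTAL it lay at 66.6, 92.4, 62.1, 46.6 and 62.2 CPM in replicates 11, 13, 15, 17 and 19. In cKO MTAL it lay at 233, 492 and 589 CPM in replicates 16, 18 and 20. In WT CTAL it lay at 358, 244, 329, 260 and 348 CPM in replicates 1, 3, 8, 10 and 22, and in cKO CTAL at 1110, 578, 630, 741 and 1240 CPM in replicates 2, 4, 7, 9 and 21. The groups of the 2 segments of WT mice did not overlap, nor did the genotypes within either segment, whereas cKO MTAL replicate 16 fell just below the lowest WT CTAL pool and the others above the highest. The order of the group means was WT MTAL (66 ± 16.6 CPM, SD, n = 5), WT CTAL (308 ± 52.4), cKO MTAL (438 ± 184, n = 3) and cKO CTAL (860 ± 298), and the neighbours WT CTAL and cKO MTAL overlapped, as did cKO MTAL and cKO CTAL.

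**Figure D1:**
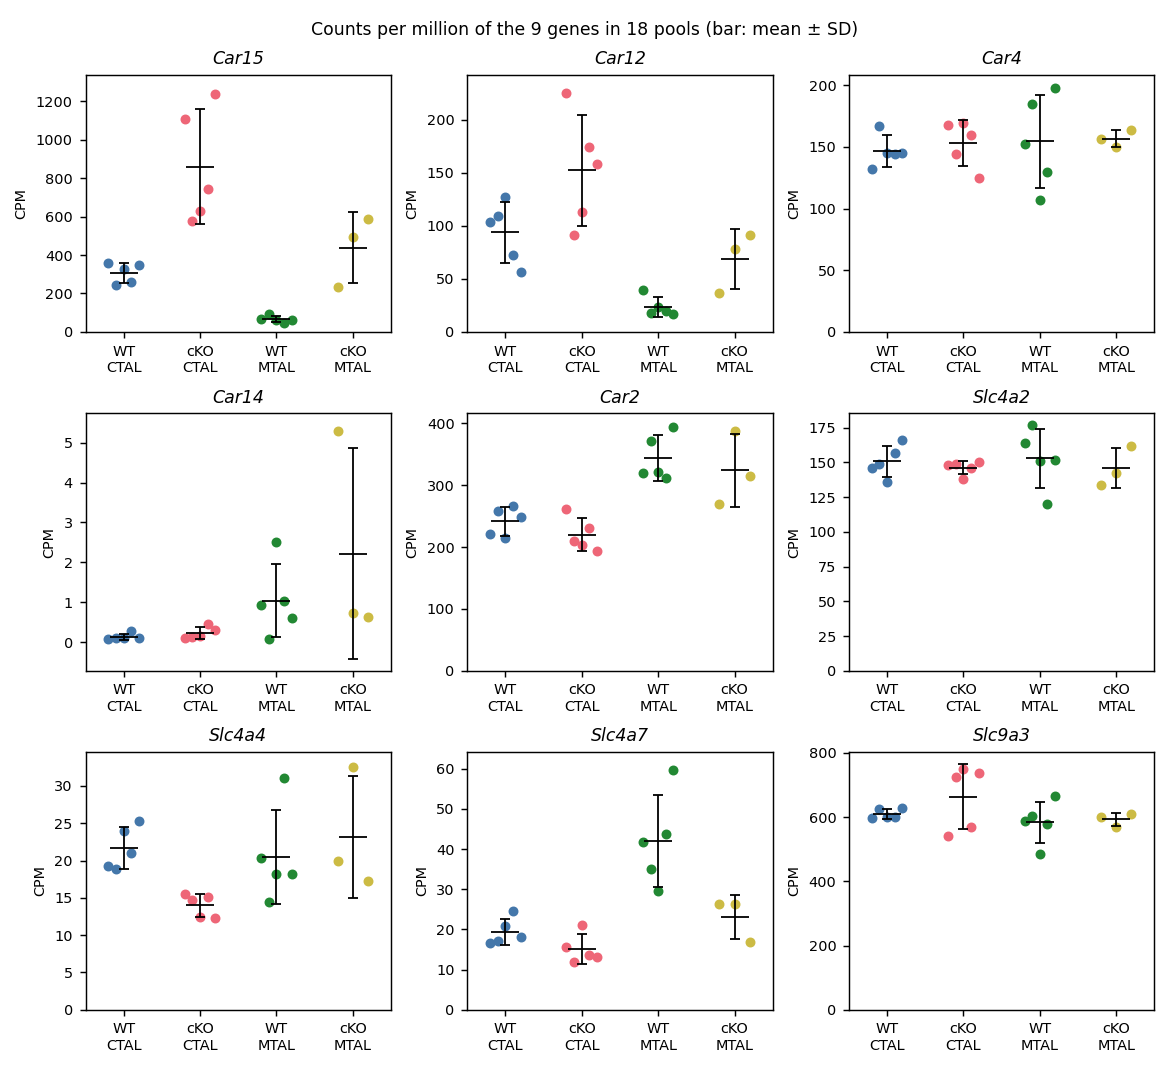
CPM (y axis, linear from 0 except for the error bar of *Car14*) of the 9 genes in the 18 pools by group; points are pools, bars the mean ± SD. *Car15* was at most 92.4 CPM in WT MTAL and at least 233 CPM in every other group, while *Car4*, *Slc4a2* and *Slc9a3* stayed in 1 range in all groups.

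*Car12* followed the same order in WT mice. It lay at 39.7, 18, 23.2, 19.8 and 17.3 CPM in WT MTAL replicates 11, 13, 15, 17 and 19, and at 36.9, 77.8 and 90.9 CPM in cKO MTAL replicates 16, 18 and 20. It lay at 104, 109, 127, 72.6 and 56.9 CPM in WT CTAL replicates 1, 3, 8, 10 and 22, and at 225, 91.1, 113, 174 and 158 CPM in cKO CTAL replicates 2, 4, 7, 9 and 21. WT MTAL replicate 11 exceeded cKO MTAL replicate 16, so the genotypes overlapped in MTAL, and they overlapped in CTAL as well. The order of the group means was WT MTAL (23.6 ± 9.29 CPM), cKO MTAL (68.5 ± 28.2), WT CTAL (94 ± 28.6) and cKO CTAL (152 ± 52.5), and each group overlapped its neighbour in this order.

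In cKO MTAL compared with WT MTAL, 2 of the 8 members tested rose and 1 fell at an adjusted p under 0.05 (edgeR quasi-likelihood test), where 7.01% of all 12060 genes passed, 4.44% upward and 2.57% downward. *Car15* rose by 2.77 on the log2 scale (SE 0.24, 95% interval 2.27 to 3.27, adjusted p = 9.28e-06), which is 6.83-fold. *Car12* rose by 1.59 (SE 0.28, 95% interval 0.99 to 2.18, adjusted p = 0.00308), which is 3.01-fold. *Slc4a7* fell by 0.81 (SE 0.23, adjusted p = 0.0432). The groups did not overlap for *Car15* and *Slc4a7*, which is the case for 15% of all genes tested. The median over the members was 0.07, and over all genes 0.00118.

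The rises of *Car15* and *Car12* passed under 17 of 18 and 16 of 17 alternative settings, and lay between 2.50 and 3.07 and between 1.33 and 1.88 when 1 pool was left out. The exception was the fit without the 7 pools with *Xist*, in which WT MTAL holds replicate 13 alone: the differences were 2.27 (adjusted p = 0.40) for *Car15* and 1.96 (adjusted p = 0.47) for *Car12*, and 0 of all genes passed in that fit. With a term for the pools with *Xist* in a fit of all 18 pools they were 2.70 (adjusted p = 1.02e-05) and 1.78 (adjusted p = 0.00454). The fall of *Slc4a7* passed under 7 of 17 settings only, and it was lost without cKO MTAL replicates 16, 18 or 20 or WT MTAL replicates 11, 17 or 19, with -0.62 (adjusted p = 0.159) without cKO MTAL replicate 20.

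Markers of other cell types also differed between these groups. Of the intercalated cell list, 3 of 6 genes tested rose, and the sum over its 9 genes was 71.1 to 194 CPM in WT MTAL and 176 to 505 in cKO MTAL. Of the proximal tubule list 1 of 2 genes tested rose (13.9 to 29.2 and 17.5 to 74.7 CPM). Each gene of this list had a higher mean in cKO MTAL than in WT MTAL, among them *Slc34a1* (19.5 and 3.8 CPM) and *Slc13a3* (5.28 and 1.33 CPM). *Slc5a12* of this list lay at 0 in 1 cKO MTAL pool and 2 WT MTAL pools and at most at 0.211 CPM in the others. The principal cell list had 0 of 5 genes past the test but summed to 49.7 to 298 and 91 to 933 CPM, where *Aqp2* alone reached 539 CPM in cKO MTAL replicate 20. Of the erythroid list 1 of 4 genes tested rose (3.16 to 28.8 and 22.4 to 45.3 CPM), of the endothelial list 2 of 4 fell (120 to 191 and 65.1 to 107 CPM), and of the thin limb list 1 of 2 fell (105 to 190 and 70.6 to 104 CPM). The immune list (84.6 to 131 and 104 to 123 CPM) had 0 of 3 genes past the test, and the distal convoluted tubule list (3.08 to 7.92 and 6.03 to 9.18 CPM) held no gene that could be tested. Of the TAL markers themselves 3 of 6 rose and 0 fell at the threshold. *Slc12a1* did not pass, though it was lower in every cKO MTAL pool (11400 to 14300 CPM) than in every WT MTAL pool (14700 to 16200 CPM). *Car15* and *Car12* were lowest of the cKO MTAL pools in replicate 16, where *Slc34a1* and *Lrp2* of the proximal tubule list lay at 5.63 and 7.89 CPM beside 22 and 34.6 in replicate 18 and 31 and 28.1 in replicate 20. Replicate 16 also held the most *Cldn10* of the cKO MTAL pools, at 283 CPM beside 151 in replicate 18 and 213 in replicate 20. The part of these markers and of the *Cldn10* level in the results was not tested. Without replicate 20, the pool with most *Aqp2*, the difference of *Car15* was 2.50 and that of *Car12* 1.33, and both passed.

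In cKO CTAL compared with WT CTAL, 1 of the 8 members rose and 1 fell, where 1.22% of 11702 genes passed, 0.658% upward and 0.564% downward. *Car15* rose by 1.47 (SE 0.20, 95% interval 1.05 to 1.89, adjusted p = 0.00173) and passed under all 21 alternatives tried, with 1.53 (adjusted p = 0.0027) without WT CTAL replicate 1, 1.38 (adjusted p = 0.0254) with that pool counted as cKO, and 1.33 (adjusted p = 0.0416) without the pools with *Xist*. *Slc4a4*, which encodes the electrogenic sodium-bicarbonate cotransporter NBCe1, lay at 19.2, 18.9, 24, 21 and 25.3 CPM in WT CTAL replicates 1, 3, 8, 10 and 22, and at 15.5, 14.7, 12.4, 15.1 and 12.3 CPM in cKO CTAL replicates 2, 4, 7, 9 and 21. It fell by 0.64 (SE 0.12, adjusted p = 0.0176), and the groups did not overlap, as they did not for *Car15*, against 3.13% of all genes tested. Its call was lost under 8 of 20 alternatives, though not without WT CTAL replicate 1 (-0.68, adjusted p = 0.0184). It was lost in the fits without cKO CTAL replicates 7 (adjusted p = 0.0558) or 21 (adjusted p = 0.0521) or WT CTAL replicate 10 (adjusted p = 0.0504) and with WT CTAL replicate 1 counted as cKO (-0.60, adjusted p = 0.0531), and the adjusted p reached up to 0.26. *Car12* differed by 0.68 (SE 0.24, 95% interval 0.18 to 1.19, adjusted p = 0.229) and did not pass.

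In the same comparison the intercalated cell list had 1 of 9 genes past the test, upward, with sums of 255 to 344 CPM in WT CTAL and 285 to 458 in cKO CTAL. Of the TAL list 1 of 6 rose. Of the proximal tubule (16.6 to 63.5 and 11.5 to 73.3 CPM), thin limb (22.3 to 131 and 14.6 to 33.3), distal convoluted tubule (6.10 to 32.8 and 7.40 to 98.9), principal cell (106 to 221 and 69.5 to 296), erythroid (4.80 to 26.8 and 5.76 to 24.7), endothelial (106 to 231 and 90.1 to 140) and immune (129 to 170 and 122 to 183) lists, 0 genes passed, with the 2 thin limb genes at log2 differences of -1.96 and -1.20. Their part in the results was not tested.

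In WT MTAL compared with WT CTAL, 2 of the 8 members rose and 2 fell, where 6.87% of 11650 genes passed, 2.76% upward and 4.10% downward. *Car15* fell by 2.23 on the log2 scale (SE 0.16, 95% interval -2.57 to -1.89, adjusted p = 2.64e-07) and *Car12* by 2.02 (SE 0.24, 95% interval -2.53 to -1.5, adjusted p = 4.68e-05). *Slc4a7* rose by 1.10 (SE 0.17, adjusted p = 0.000585) and *Car2*, the cytosolic carbonic anhydrase, by 0.50 (SE 0.09, adjusted p = 0.00209). The groups did not overlap for these 4 members, which is the case for 7.30% of all genes tested. Without WT CTAL replicate 1 the differences were -2.17 for *Car15*, -1.98 for *Car12*, 1.04 for *Slc4a7* and 0.47 for *Car2*, and all 4 passed. The falls of *Car15* and *Car12* passed under all 20 and all 19 alternatives. The rises of *Car2* and *Slc4a7* were lost with limma on log2(TPM + 1) (adjusted p = 0.0892 and 0.0831) and without the pools with *Xist* (adjusted p = 0.0517 and 0.0881). In the same comparison 2 of 6 intercalated cell markers tested fell, 2 of 6 TAL markers fell, 1 of 5 principal cell markers fell, 1 of 3 immune markers fell and 1 of 2 thin limb markers rose, while 0 of 2 proximal tubule, 0 of 1 erythroid and 0 of 4 endothelial markers passed. Their part was not tested.

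**Figure D2:**
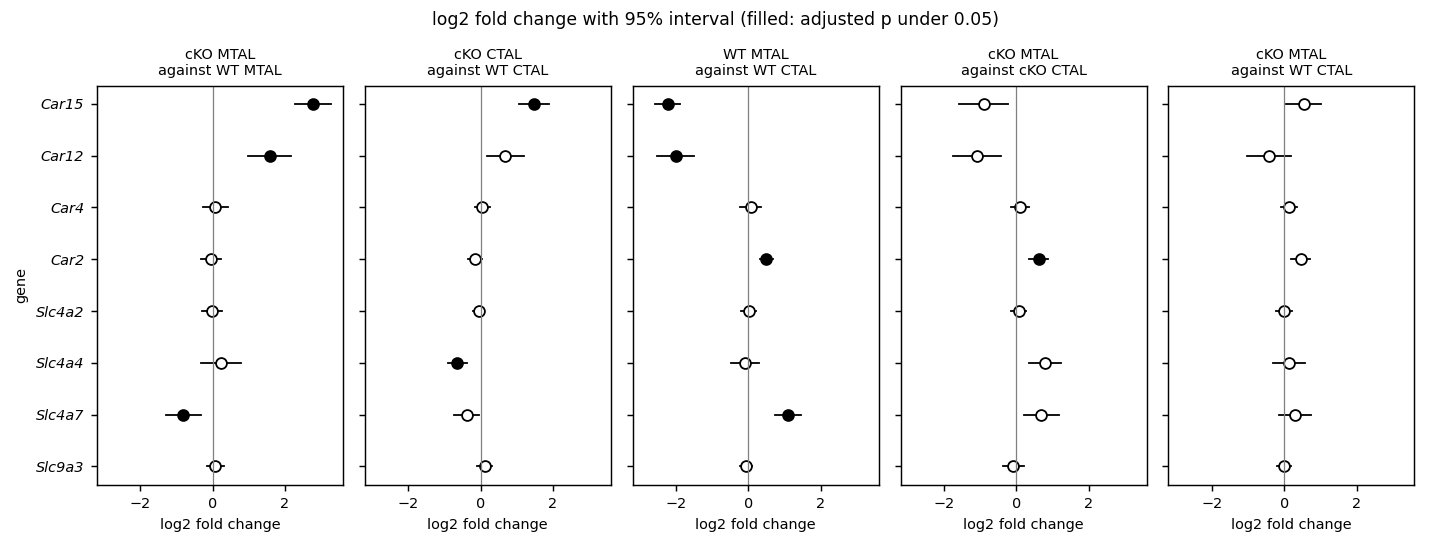
log2 fold change (x axis) of the 8 members tested in the 5 comparisons, with 95% intervals from edgeR; filled points had an adjusted p under 0.05. *Car15* was at 2.77 in cKO MTAL against WT MTAL and at -2.23 in WT MTAL against WT CTAL.

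The remaining comparisons concern cKO MTAL and the cortical groups, and they share pools with those above. In cKO MTAL compared with cKO CTAL, 1 of the 8 members rose, where 1.75% of 12044 genes passed, 1.12% upward and 0.631% downward. *Car2* rose by 0.63 (SE 0.12, adjusted p = 0.0241), a call lost under 6 of 17 alternatives, among them the fits without cKO CTAL replicates 4, 7, 9 or 21 or cKO MTAL replicate 20, with adjusted p from 0.0553 to 0.0984. *Car15* differed by -0.91 (SE 0.31, 95% interval -1.58 to -0.23, adjusted p = 0.147) and *Car12* by -1.08 (SE 0.31, 95% interval -1.76 to -0.41, adjusted p = 0.0952), and each passed under 3 alternatives, while *Slc4a4* differed by 0.79 (adjusted p = 0.0714) and passed under 5 of 17. The groups did not overlap for *Car12*, *Car2* and *Slc4a4*, against 10.8% of all genes tested. In cKO MTAL compared with WT CTAL, 0 of the 8 members passed in the edgeR quasi-likelihood test, where 2.50% of 12024 genes passed, 1.63% upward and 0.865% downward, and *Car2* passed under 6 of 17 alternatives, among them DESeq2 (adjusted p = 0.00821), the edgeR likelihood ratio test (adjusted p = 0.0151) and total counts in place of TMM (adjusted p = 0.0372). There *Car15* differed by 0.54 (95% interval 0.06 to 1.02, adjusted p = 0.205), *Car12* by -0.42 (95% interval -1.04 to 0.19, adjusted p = 0.435) and *Car2* by 0.46 (95% interval 0.20 to 0.71, adjusted p = 0.0614). The groups did not overlap for *Car2*, against 12.0% of all genes. Without cKO MTAL replicate 16 *Car15* passed, at 0.83 (adjusted p = 0.0193), and without replicate 20 it was 0.27 (adjusted p = 0.591). Of the cell type markers, 2 of 2 of the thin limb rose against cKO CTAL, while 1 of 6 TAL and 1 of 4 immune markers fell. Against WT CTAL 1 of 9 intercalated cell markers rose, and 1 of 4 endothelial and 1 of 4 immune markers fell. No marker of the remaining lists passed, and the part of the markers was not tested.

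Whether the genotype difference in MTAL exceeded that in CTAL was tested by the interaction term. None of the 8 members passed in the edgeR quasi-likelihood test, where 0.286% of 12586 genes passed, 0.262% upward and 0.0238% downward. The difference for *Car15* was 1.29 (SE 0.34, 95% interval 0.58 to 1.99, adjusted p = 0.0808), larger in MTAL but short of the threshold, and it passed under 3 of 28 alternatives, namely the edgeR likelihood ratio test (adjusted p = 0.0187) and the fits that left out cKO MTAL replicate 16 (adjusted p = 0.029) or WT MTAL replicate 13 (adjusted p = 0.0429). The differences for *Car12* (0.89, adjusted p = 0.31) and *Slc4a4* (0.86, adjusted p = 0.141) did not pass.

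*Car4*, *Slc4a2* and *Slc9a3* passed in no comparison in the edgeR quasi-likelihood test. *Car4*, anchored to the cell surface, ranged from 107 to 198 CPM over all pools, and its differences lay between 0.05 and 0.14 on the log2 scale in the 5 comparisons. *Slc4a2*, the chloride-bicarbonate exchanger AE2, ranged from 120 to 177 CPM. *Slc9a3* ranged from 486 to 749 CPM, and it differed by 0.08 (95% interval -0.16 to 0.31, adjusted p = 0.739) in cKO MTAL against WT MTAL and by 0.11 (95% interval -0.10 to 0.32, adjusted p = 0.729) in cKO CTAL against WT CTAL. In TPM, which correct for transcript length, *Slc9a3* lay at 206 to 220 in cKO MTAL and 149 to 202 in WT MTAL, without overlap. *Car2* lay at 221, 259, 214, 266 and 249 CPM in WT CTAL replicates 1, 3, 8, 10 and 22 and at 320, 372, 322, 312 and 394 CPM in WT MTAL replicates 11, 13, 15, 17 and 19, and differed by -0.04 (95% interval -0.31 to 0.23, adjusted p = 0.887) between cKO MTAL (270, 387 and 315 CPM) and WT MTAL and by -0.15 (95% interval -0.35 to 0.05, adjusted p = 0.577) between cKO CTAL and WT CTAL. *Slc4a7* lay at 29.5 to 59.8 CPM in WT MTAL, 16.8 to 26.3 in cKO MTAL, 16.6 to 24.5 in WT CTAL and 11.8 to 21.2 in cKO CTAL, so its highest levels were in WT MTAL. *Car14*, a transmembrane carbonic anhydrase, was at most 0.457 CPM in CTAL, lay between 0.0845 and 2.52 CPM in WT MTAL and at 5.28, 0.74 and 0.638 CPM in cKO MTAL replicates 16, 18 and 20. It passed the low-count filter in no comparison. Without the filter *Car14* differed by 2.90 (adjusted p = 0.0348) in WT MTAL against WT CTAL, 3.21 (adjusted p = 0.0188) in cKO MTAL against cKO CTAL and 3.97 (adjusted p = 0.00194) in cKO MTAL against WT CTAL, and by 1.08 (adjusted p = 0.44) in cKO MTAL against WT MTAL. These values rest on 1 to 8 reads in each WT CTAL pool and 3 to 30 in each cKO CTAL pool, and WT MTAL replicate 13 (0.0845 CPM) lay within the range of WT CTAL.

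Levels between genes were compared in TPM, which correct for transcript length. Over 16 carbonic anhydrase genes, *Car15* made up 9.89% to 15% of the summed TPM in WT MTAL, where *Car2* made up 48.2% to 54.9% and *Car4* 23.3% to 32.5%. In WT CTAL the share of *Car15* was 36.5% to 50.1%, and in cKO MTAL 34.3%, 51.2% and 53.3% in replicates 16, 18 and 20. In cKO CTAL it was 62.6% to 76.2%. *Car12* stayed between 0.977% and 6.28% in all pools. The summed level was 433 to 700 TPM in WT MTAL, 732 to 810 in WT CTAL, 768 to 1260 in cKO MTAL and 1190 to 1840 in cKO CTAL. Of the other members, *Slc9a3* had 149 to 262 TPM, *Slc4a2* 38.1 to 92.8, *Slc4a4* 2.65 to 15.9 and *Slc4a7* 3.19 to 11.1.

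**Figure D3:**
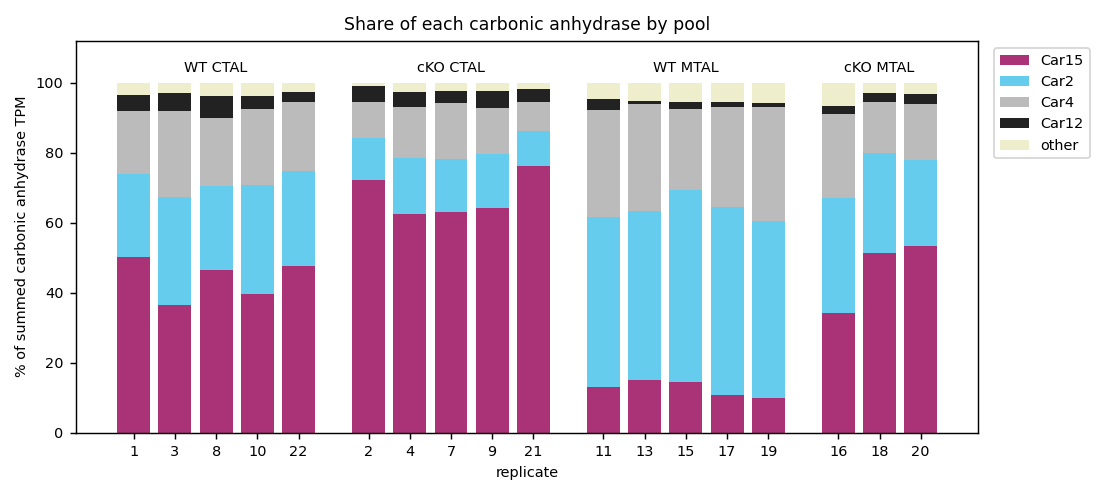
Share of the summed TPM of 16 carbonic anhydrase genes (y axis, in percent) by pool, with replicate numbers on the x axis; each bar is 1 pool. The share of *Car15* was at most 15% in WT MTAL and at least 34.3% in every other pool.

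**Figure D4:**
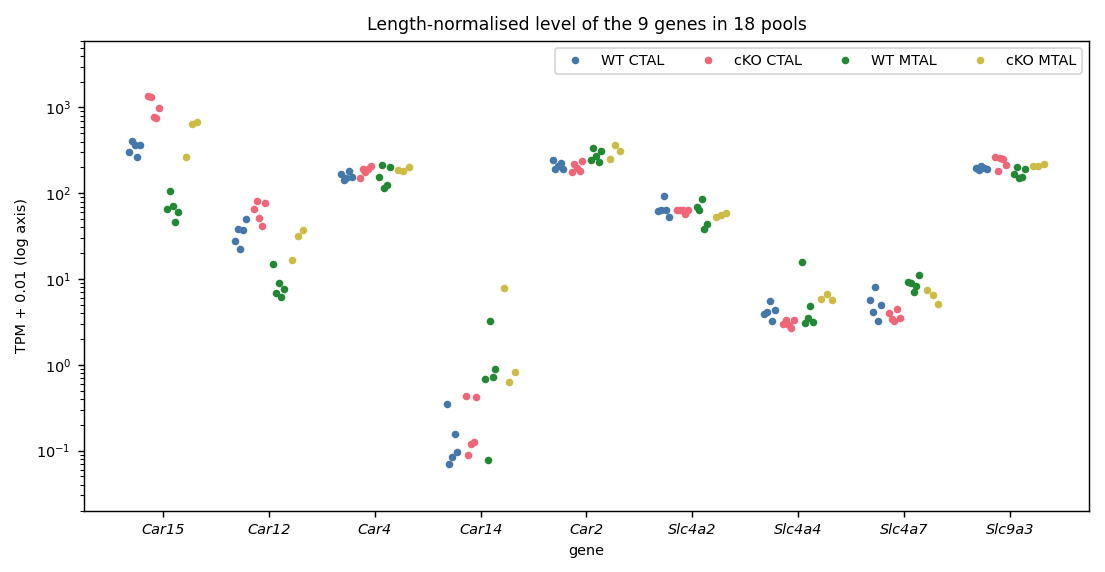
TPM + 0.01 (log axis) of the 9 genes in the 18 pools, coloured by group. *Car15* reached 1360 TPM in cKO CTAL, and *Car14* stayed at or below 7.78 TPM.

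The reads counted for *Car15* may not all be its own. The gene *Gm20518* on the same strand, at chr16:17835277-17891671, covers nearly all of *Car15*, and how the authors divided reads shared by both is not given in the sources used here. *Gm20518* had 3.04% to 9.99% of the counts of *Car15* in every pool. With the counts of both added, the log2 difference of *Car15* was 2.77 in cKO MTAL against WT MTAL, 1.45 in cKO CTAL against WT CTAL and -2.23 in WT MTAL against WT CTAL. *Gm20518* was also the gene whose pattern was closest to *Car15*, with a root mean square difference of 0.389 between the centred log2 values over 18 pools and 12585 genes compared. The next were *Thsd4* (0.397) and *Pth1r* (0.43), where *Car15* itself had an SD of 1.49. The closest to *Car12* (SD 1.15) were *Sulf2* (0.338), *Klk1* (0.345) and *Pkdcc* (0.354), and to *Slc4a7* (SD 0.63) *Pls1* (0.286), *Inpp5f* (0.293) and *Ank2* (0.295).

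A wider list of 45 genes of acid-base transport was examined in the same fits. In cKO MTAL compared with WT MTAL 3 of its 24 genes tested rose and 0 fell, and in cKO CTAL compared with WT CTAL 1 of 25 rose and 0 fell. In WT MTAL compared with WT CTAL 1 of 24 rose and 5 fell, in cKO MTAL compared with cKO CTAL 0 of 26 rose and 2 fell, and in cKO MTAL compared with WT CTAL 1 of 26 rose and 2 fell. None of 27 passed the interaction test. Over all genes tested, 4.44% rose in cKO MTAL against WT MTAL and 0.658% in cKO CTAL against WT CTAL, 2.76% rose and 4.10% fell between WT segments, 0.631% fell between cKO segments, and 1.63% rose and 0.865% fell in cKO MTAL against WT CTAL. Of the families described here, in cKO MTAL 0 of 4 other carbonic anhydrases, 1 of 5 other Slc4 transporters, 0 of 6 other Slc9 exchangers and regulatory factors, 0 of 4 Slc26 exchangers and 1 of 2 genes of ammonia and proton-potassium transport passed, those 2 upward.

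*Slc4a9*, the exchanger AE4 of intercalated cells, lay at 2.40, 2.09, 1.56, 2.31 and 1.63 CPM in WT MTAL replicates 11, 13, 15, 17 and 19 and at 5.28, 22.5 and 32.5 CPM in cKO MTAL replicates 16, 18 and 20, with no overlap. It rose by 3.37 (SE 0.43, adjusted p = 0.000223) and is also in the intercalated cell list. The list summed to 176, 196 and 505 CPM in cKO MTAL replicates 16, 18 and 20, beside 71.1 to 194 CPM in WT MTAL. Of its 8 other genes, *Atp6v1b1* (128, 116 and 236 CPM in these 3 pools) and *Slc26a4* (3.03, 2.42 and 26.5 CPM) exceeded every WT MTAL pool, where they were at most 81.1 and 1.63 CPM. *Atp6v0d2* lay at 7.82, 35.5 and 30.4 CPM and *Foxi1* at 5.42, 2.27 and 34.1 CPM, beside at most 16.3 and 4.87 CPM in WT MTAL. *Aqp6*, *Slc4a1*, *Rhbg* and *Insrr* exceeded every WT MTAL pool in replicate 20 alone. The part of these markers in the difference of *Slc4a9* was not tested. *Slc4a9* fell by 1.54 on the log2 scale in WT MTAL compared with WT CTAL (adjusted p = 0.00267) and rose by 1.83 in cKO MTAL compared with WT CTAL (adjusted p = 0.0497).

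*Atp4a*, the catalytic subunit of the proton-potassium ATPase, lay at 42.6, 51.3, 35.6, 27.1 and 34.7 CPM in WT MTAL replicates 11, 13, 15, 17 and 19 and at 96, 66.1 and 163 CPM in cKO MTAL replicates 16, 18 and 20. It rose by 1.55 (SE 0.24, adjusted p = 0.00111) in cKO MTAL and by 0.87 (SE 0.19, adjusted p = 0.0369) in cKO CTAL, where the groups overlapped, and fell by 1.34 on the log2 scale in WT MTAL compared with WT CTAL (adjusted p = 0.000191).

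*Slc9a2*, a further sodium-proton exchanger (NHE2), lay at 24.2 to 34.8 CPM in WT MTAL, 26.7 to 41.6 in cKO MTAL, 57.4 to 90.8 in WT CTAL and 74.6 to 85.8 in cKO CTAL. It fell in all 3 comparisons of an MTAL group with a CTAL group, by 1.32 on the log2 scale between WT segments (adjusted p = 1.01e-05), by 1.14 between cKO segments (adjusted p = 0.00267) and by 0.96 between cKO MTAL and WT CTAL (adjusted p = 0.0174). *Car8*, a carbonic anhydrase related protein without enzyme activity, also fell in these 3 comparisons, with log2 differences of -1.29 (adjusted p = 0.00407), -1.73 (adjusted p = 0.011) and -1.37 (adjusted p = 0.0383).

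**Figure D5:**
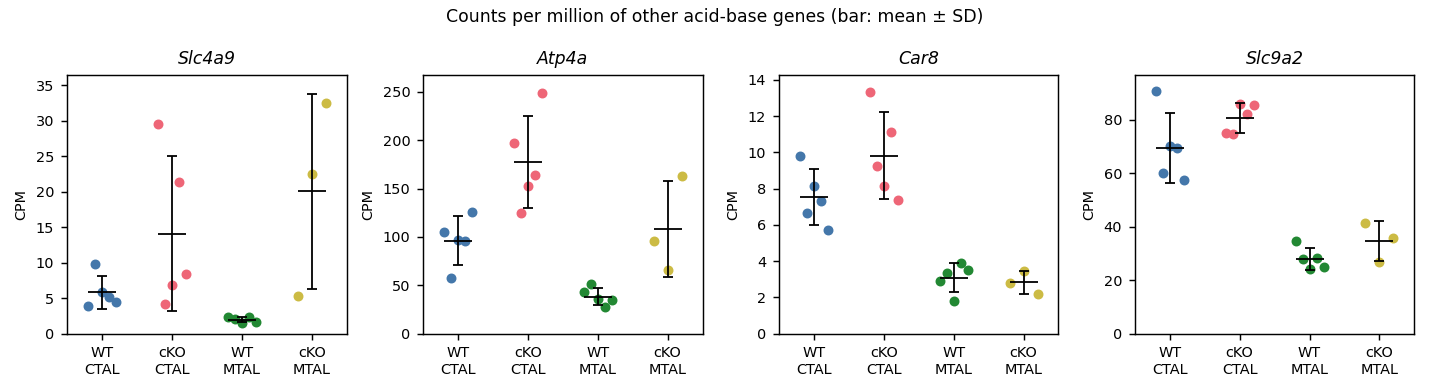
CPM (y axis, from 0) of *Slc4a9*, *Atp4a*, *Car8* and *Slc9a2* in the 18 pools by group, with mean ± SD. *Slc4a9* and *Atp4a* were higher in every cKO MTAL pool than in every WT MTAL pool, and *Slc9a2* was lower in every MTAL pool than in every CTAL pool.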

How the data were processed

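RNA of 18 pools was sequenced from poly-A selected, strand-specific libraries. Per the paper's methods the authors used fastp for trimming and DRAGEN for mapping to mm10, and quantified genes with a Gencode annotation, while the submitters' processing notes list FastQC, Trimmomatic, DRAGEN and Picard. The authors deposited estimated counts per gene, not normalized, and TPM values, scaled for transcript length. How the counting used strand and shared reads is not given in the sources used here. The authors left out 2 cKO MTAL pools after quality control and 1 cKO CTAL pool with *Cldn10* near the WT CTAL level. These pools were not analysed here. Per the paper, nephrocalcinosis made cKO MTAL very hard to dissect.

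The estimated counts were rounded, where the plan had assumed whole counts. A gene was kept when 5 pools (3 pools for fits holding cKO MTAL) reached 3 CPM. After TMM normalization, edgeR 4.0.16 (R 4.3.3) gave quasi-likelihood F tests on the pools of each comparison, with Benjamini-Hochberg adjustment over all genes. Rose and fell mean an adjusted p under 0.05. The SE was derived from the F statistic and is approximate. In simulated data for cKO MTAL against WT MTAL, 195 of 195 genes changed 4-fold were recovered with 9 false calls. The simulation gave every gene the same spread between pools beyond sampling noise. It therefore does not show how smaller changes or more variable genes are recovered. No replicate pair agreed within sampling noise. Of the gene identifiers, 55141 of 55401 (99.5%) were in the Gencode annotation of GRCm38. The figures were drawn with matplotlib.

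The members and all lists were chosen with earlier results of these data known. Named were the 9 members, genes of the wider list with an adjusted p under 0.05 and a log2 difference of at least 1 in 1 comparison or more, and the 3 genes closest in pattern to each member with such a difference, by centred log2(CPM + 1). Other genes of the marker lists were handled as counts, and 1 gene of the wider list is not reported here by name. Alternatives were DESeq2 1.42.0, the edgeR likelihood ratio test, RLE or no scaling factors, no filter, limma 3.58.1 on log2(TPM + 1), 1 fit of all pools, a fold threshold, each pool left out, and, chosen after seeing the data, *Xist* and *Gm20518*. The exact Mann-Whitney test was also run on CPM and TPM.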

Additional observations from a re-analysis of the deposited data

Results flagged for a closer look

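*Car12* in WT MTAL replicate 11 lay at 39.7 CPM, apart from the other 4 pools of its group at 17.3 to 23.2 CPM. Without this pool the log2 difference of *Car12* was 1.85 (adjusted p = 0.000676) in cKO MTAL compared with WT MTAL and -2.27 (adjusted p = 7.45e-06) in WT MTAL compared with WT CTAL. *Car14* in WT CTAL replicate 10 lay at 0.271 CPM, apart from 0.0779 to 0.115 CPM in the others of its group, a level of 8 reads beside 1 to 7, under the low-count filter. Of 27 groups examined, chance sets a pool apart in about 1 in 20.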

How the results depend on the processing

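No paired analysis was possible because each pool came from its own mouse and the groups share no replicate numbers. The rises of *Car15* and *Car12* in cKO MTAL were lost, of the alternatives to the edgeR test, only without the pools with *Xist*, and the difference of *Car15* in cKO CTAL and of *Car15* and *Car12* between WT segments passed under every alternative run. The smaller calls (*Slc4a7* in cKO MTAL, *Slc4a4* in cKO CTAL, *Car2* and *Slc4a7* between segments) depended on the setting, as given beside them. The numbers of genes and members given next are those with an adjusted p under 0.05, and the cause of a moved count was not tested unless the setting itself removes pools or genes or raises the threshold. The edgeR quasi-likelihood test itself passed 845 genes in cKO MTAL against WT MTAL, 143 in cKO CTAL against WT CTAL, 800 in WT MTAL against WT CTAL, 211 in cKO MTAL against cKO CTAL, 300 in cKO MTAL against WT CTAL and 36 in the interaction. With the DESeq2 likelihood ratio test, genes numbered 1359 in cKO MTAL against WT MTAL, 360 in cKO CTAL against WT CTAL, 822 in cKO MTAL against cKO CTAL, 826 in cKO MTAL against WT CTAL and 353 in the interaction, and members numbered 3 in cKO MTAL against cKO CTAL and 1 in cKO MTAL against WT CTAL. With the edgeR likelihood ratio test, genes numbered 1304 in cKO MTAL against WT MTAL, 331 in cKO CTAL against WT CTAL, 733 in cKO MTAL against cKO CTAL, 782 in cKO MTAL against WT CTAL and 337 in the interaction, and members numbered 3 in cKO MTAL against cKO CTAL, 1 in cKO MTAL against WT CTAL and 1 in the interaction. With total counts in place of TMM, members numbered 1 in cKO MTAL against WT CTAL. Without a low-count filter, genes numbered 1399 in cKO MTAL against WT MTAL, 508 in cKO MTAL against cKO CTAL, 702 in cKO MTAL against WT CTAL and 79 in the interaction, and members numbered 4 in cKO MTAL against cKO CTAL and 1 in cKO MTAL against WT CTAL. With limma on log2(TPM + 1), genes numbered 317 in cKO MTAL against WT MTAL, 92 in cKO CTAL against WT CTAL, 452 in WT MTAL against WT CTAL, 68 in cKO MTAL against cKO CTAL, 113 in cKO MTAL against WT CTAL and 7 in the interaction, and members numbered 1 in cKO CTAL against WT CTAL, 2 in WT MTAL against WT CTAL and 0 in cKO MTAL against cKO CTAL. In 1 fit of all 18 pools, genes numbered 2136 in cKO MTAL against WT MTAL, 688 in cKO MTAL against cKO CTAL and 728 in cKO MTAL against WT CTAL, and members numbered 1 in cKO CTAL against WT CTAL, 4 in cKO MTAL against cKO CTAL and 1 in cKO MTAL against WT CTAL. With a log2 threshold of 1, genes numbered 451 in cKO MTAL against WT MTAL, 55 in cKO CTAL against WT CTAL, 270 in WT MTAL against WT CTAL, 113 in cKO MTAL against cKO CTAL and 146 in cKO MTAL against WT CTAL, and members numbered 1 in cKO CTAL against WT CTAL and 0 in cKO MTAL against cKO CTAL. With WT CTAL replicate 1 counted as cKO, genes numbered 17 in the interaction, and members numbered 1 in cKO CTAL against WT CTAL. With a term for the pools with *Xist*, genes numbered 92 in cKO CTAL against WT CTAL, 686 in cKO MTAL against cKO CTAL, 527 in cKO MTAL against WT CTAL and 21 in the interaction, and members numbered 1 in cKO CTAL against WT CTAL, 3 in cKO MTAL against cKO CTAL and 1 in cKO MTAL against WT CTAL. Without the pools with *Xist*, genes numbered 0 in cKO MTAL against WT MTAL, 39 in cKO CTAL against WT CTAL, 517 in WT MTAL against WT CTAL, 120 in cKO MTAL against WT CTAL and 0 in the interaction, and members numbered 0 in cKO MTAL against WT MTAL, 1 in cKO CTAL against WT CTAL and 2 in WT MTAL against WT CTAL. *Car4*, where it did not pass, turned direction to 0.00 with the DESeq2 likelihood ratio test in the interaction, 0.00 with the edgeR likelihood ratio test in the interaction, 0.02 with RLE normalization in the interaction, 0.03 with total counts in place of TMM in the interaction, -0.02 with limma on log2(TPM + 1) in WT MTAL against WT CTAL, 0.09 with limma on log2(TPM + 1) in the interaction, -0.02 with WT CTAL replicate 1 counted as cKO in cKO CTAL against WT CTAL, 0.07 with WT CTAL replicate 1 counted as cKO in the interaction, 0.00 with a term for the pools with *Xist* in the interaction and -0.20 without the pools with *Xist* in cKO MTAL against WT MTAL. *Slc9a3*, where it did not pass, turned direction to 0.00 with RLE normalization in cKO MTAL against WT CTAL, -0.05 without a low-count filter in cKO MTAL against WT CTAL, 0.06 with limma on log2(TPM + 1) in the interaction, 0.00 in 1 fit of all 18 pools in cKO MTAL against WT CTAL, -0.01 with a term for the pools with *Xist* in cKO MTAL against WT MTAL, -0.04 with a term for the pools with *Xist* in cKO MTAL against WT CTAL and 0.00 without the pools with *Xist* in WT MTAL against WT CTAL. *Car2*, where it did not pass, turned direction to 0.03 with total counts in place of TMM in cKO MTAL against WT MTAL, 0.13 with limma on log2(TPM + 1) in cKO MTAL against WT MTAL and 0.03 with a term for the pools with *Xist* in cKO MTAL against WT MTAL. *Slc4a2*, where it did not pass, turned direction to 0.05 with total counts in place of TMM in cKO MTAL against WT MTAL, 0.06 with total counts in place of TMM in cKO MTAL against WT CTAL, -0.02 without a low-count filter in the interaction, -0.19 with limma on log2(TPM + 1) in WT MTAL against WT CTAL, -0.16 with limma on log2(TPM + 1) in cKO MTAL against cKO CTAL, 0.04 without the pools with *Xist* in cKO MTAL against WT CTAL and -0.21 without the pools with *Xist* in the interaction. *Slc4a4*, where it did not pass, turned direction to 0.20 with limma on log2(TPM + 1) in WT MTAL against WT CTAL. With 1 pool left out at a time, the count of genes ranged from 457 to 968 in cKO MTAL against WT MTAL, from 75 to 188 in cKO CTAL against WT CTAL, from 538 to 784 in WT MTAL against WT CTAL, from 104 to 835 in cKO MTAL against cKO CTAL, from 154 to 690 in cKO MTAL against WT CTAL and from 15 to 570 in the interaction. With 1 pool left out at a time, the count of members lay from 2 to 3 in cKO MTAL against WT MTAL, from 1 to 2 in cKO CTAL against WT CTAL, at 4 in WT MTAL against WT CTAL, from 0 to 1 in cKO MTAL against cKO CTAL, from 0 to 2 in cKO MTAL against WT CTAL and from 0 to 1 in the interaction. In cKO MTAL against WT MTAL the count of genes was 457 without cKO MTAL replicate 20, and 506, 550 and 548 without WT MTAL replicates 15, 17 and 19. In cKO CTAL against WT CTAL it was 75 to 93 without cKO CTAL replicates 2, 7 or 21 or WT CTAL replicates 10 or 22. In cKO MTAL against cKO CTAL it was 104 to 130 without cKO CTAL replicates 4, 7 or 9 or cKO MTAL replicate 16, and in cKO MTAL against WT CTAL 154 to 161 without WT CTAL replicates 1, 8 or 10. In the interaction it was 15 to 23 without cKO CTAL replicates 4 or 9, WT CTAL replicates 1, 8 or 10 or WT MTAL replicates 15 or 17, and 58 to 137 without WT CTAL replicate 3, cKO MTAL replicate 16 or WT MTAL replicates 11 or 13. In the comparisons with cKO MTAL the highest count was that without cKO MTAL replicate 18. With 1 pool left out the direction of uncalled differences turned for *Car2* in cKO MTAL against WT MTAL (-0.17 to 0.06), *Car4* in cKO MTAL against WT MTAL (-0.02 to 0.17), *Slc4a2* in cKO MTAL against WT MTAL (-0.09 to 0.05), *Slc4a4* in cKO MTAL against WT MTAL (-0.07 to 0.43), *Car4* in WT MTAL against WT CTAL (-0.03 to 0.17), *Slc4a2* in WT MTAL against WT CTAL (-0.05 to 0.09), *Slc4a4* in WT MTAL against WT CTAL (-0.3 to 0.01), *Slc4a2* in cKO MTAL against cKO CTAL (-0.02 to 0.12), *Slc4a2* in cKO MTAL against WT CTAL (-0.08 to 0.03), *Slc4a4* in cKO MTAL against WT CTAL (-0.17 to 0.32), *Slc9a3* in cKO MTAL against WT CTAL (-0.03 to 0.05), *Car2* in the interaction (-0.02 to 0.2), *Car4* in the interaction (-0.08 to 0.12), *Slc4a2* in the interaction (-0.04 to 0.09) and *Slc9a3* in the interaction (-0.12 to 0.02). The exact Mann-Whitney test (two-sided) of *Car15* gave p = 0.0357 in cKO MTAL against WT MTAL, the smallest that 3 against 5 pools allow, and p = 0.00794 in cKO CTAL against WT CTAL, the smallest for 5 against 5. In cKO MTAL against WT MTAL the exact test gave p = 0.0714 for *Car12* on CPM, which did not pass, and 0.0357 on TPM, and for *Slc4a7* 0.0357 on CPM and 0.0714 on TPM. For *Slc9a3* in the same comparison it gave 0.0357 on TPM but did not pass on CPM. In cKO CTAL against WT CTAL it gave 0.0159 on TPM and 0.0952 on CPM for *Car12*. In cKO MTAL against WT CTAL it gave 0.0357 on TPM for *Car4* and *Slc4a4*, and neither passed on CPM. For *Car14* the exact test gave 0.0357 in cKO MTAL against each CTAL group, 0.0952 in WT MTAL against WT CTAL and in cKO CTAL against WT CTAL, and 0.786 in cKO MTAL against WT MTAL. The members passing without a low-count filter include *Car14* in the 3 comparisons of an MTAL with a CTAL group.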

Other observations

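With transcript length or the scaling of a whole pool, the ratio of TPM to CPM can change, and which applied was not tested. For *Slc4a4* it was 0.778 in WT MTAL replicate 11 and between 0.154 and 0.327 in the other 17 pools, so that this pool held the highest TPM of *Slc4a4* (15.9) at a CPM of 20.4, within the range of its group. For *Slc4a7* the ratio was 0.449 in WT CTAL replicate 22 and between 0.186 and 0.304 in the others. For *Slc4a2* it was 0.558 in WT CTAL replicate 22 and 0.574 in WT MTAL replicate 15, and between 0.285 and 0.44 in the others. In *Car4* it lay between 0.952 and 1.28 in all pools.

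*Slc4a8*, a sodium-driven chloride-bicarbonate exchanger, was higher in WT MTAL (57.9 to 73.5 CPM) than in WT CTAL (36.0 to 55.2 CPM), by 0.44 (adjusted p = 0.0225). This gene was chosen after its values were seen.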
